A study of Homo sapiens with 5 samples.

Results

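MYC, its bHLH-zipper partners and the coactivator ATAD2 were examined across the 5 samples of a study of the lysine demethylase LSD1 in androgen signalling. The members were 8 genes taken by symbol, MYC, MAX, MXI1, MXD1, MXD4, MNT, MLX and ATAD2. All 8 were found among the 12916 genes at 1 FPKM or more in either RNA library (fragments normalised to transcript length and library size, a unit read from the layout of the table). RNA was sequenced from LNCaP, a human prostate cancer cell line with luminal features, after transfection of an siRNA against LSD1 or of a control siRNA. Peak lists from chromatin immunoprecipitation (ChIP-seq) came from untransfected cells: LSD1 in LNCaP, LSD1 in VCaP, which is another prostate cancer line, and in LNCaP also H3T6ph, the phosphorylated threonine 6 of histone H3. The 5 groups are single samples, which leaves no spread between replicates to set a value against, and no p-value was computed. All cells were between passages 14 and 17 and were kept for 3 days without steroid hormones, in 10% charcoal-stripped serum, ahead of a hormone treatment. The labels name neither the hormone nor the siRNA sequences, and do not say whether each library comes from 1 culture or a pool.

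MYC is a transcription factor that binds DNA as a dimer with MAX, at sites called E-boxes, and raises genes of ribosome production, nucleotide supply and cell division. MXI1, MXD1, MXD4 and MNT also pair with MAX, occupy the same sites and recruit SIN3 corepressors, so they work against MYC. MLX is a second hub, which pairs with the glucose-responsive factors MLXIP (MondoA) and MLXIPL and with some MXD proteins and MNT. ATAD2 is a bromodomain ATPase described as a coactivator of MYC, E2F factors and the androgen receptor. MYC and ATAD2 both lie on the long arm of chromosome 8, a region that is often gained in prostate cancer.

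The palindrome CACGTG is the E-box that MYC and MAX dimers prefer, and it was searched in RefSeq promoter windows of build GRCh38.p14, from 250 bases before to 50 after a gene's start. Promoter windows were used for 6 of the 8 members, and MYC and ATAD2 had none in the table used. Of the 6, MXD4, MNT and MLX held the motif and MAX, MXI1 and MXD1 did not. The motif was in 8.77% of all 27305 genes with a window and in 12.7% of 9721 measured protein-coding genes. Some genes have several windows, and a gene was counted if any of them held the motif. The windows around the motif are shown for these 3 members, and below them for the genes of ribosome biogenesis and polyamine synthesis with the motif that had the lowest log2 fold changes after LSD1 siRNA, with the motif in capitals.

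MXD4: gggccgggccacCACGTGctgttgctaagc
MNT: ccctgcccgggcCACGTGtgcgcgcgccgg
MLX: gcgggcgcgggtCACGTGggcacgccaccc
NOP2: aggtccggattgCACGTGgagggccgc
RRP9: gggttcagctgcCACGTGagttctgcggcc
SRM: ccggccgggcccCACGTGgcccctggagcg

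All are written 5′ to 3′ on the gene's strand. The MXD4 window lies at chr4:2262330-2262359 on the minus strand, with the motif 238 bases before the start. The MNT window lies at chr17:2401236-2401265 on the minus strand, with the motif 193 bases before the start. The MLX window lies at chr17:42567038-42567067 on the plus strand, and its motif begins 50 bases before the start. The NOP2 window lies at chr12:6568242-6568268 on the minus strand, past the start. The RRP9 window lies at chr3:51941892-51941921 and the SRM window at chr1:11060200-11060229, both on the minus strand. A match describes these letters only and is not evidence of binding.

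The RNA comparison asked how these genes differed after LSD1 siRNA. The targeted gene KDM1A was at 6.87 FPKM in the LSD1 siRNA library and 37.0 FPKM in the control siRNA library, or 18.6% of control. MYC and ATAD2 were the 2 members with the largest differences, both lower after LSD1 siRNA. MAX and the 4 antagonists all had log2 fold changes between -0.03 and 0.15, and MLX lay between these and MYC. By a fixed size of 1.5-fold (a log2 difference of 0.58 on the log2(FPKM + 1) scale), 1 member, ATAD2, was lower and none was higher. The same size was passed by 1.18% of the 11753 measured protein-coding genes downward and 1.04% upward. At a smaller size, a log2 difference of 0.32, MYC and ATAD2 were lower, MLX just missed it and no member was higher, beside 7.01% of coding genes downward and 5.68% upward. No member differed by 2-fold, as 0.128% of coding genes did downward and 0.111% upward. Fold changes are LSD1 siRNA over control siRNA on that scale, unless given as a ratio.

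**Figure D1:**
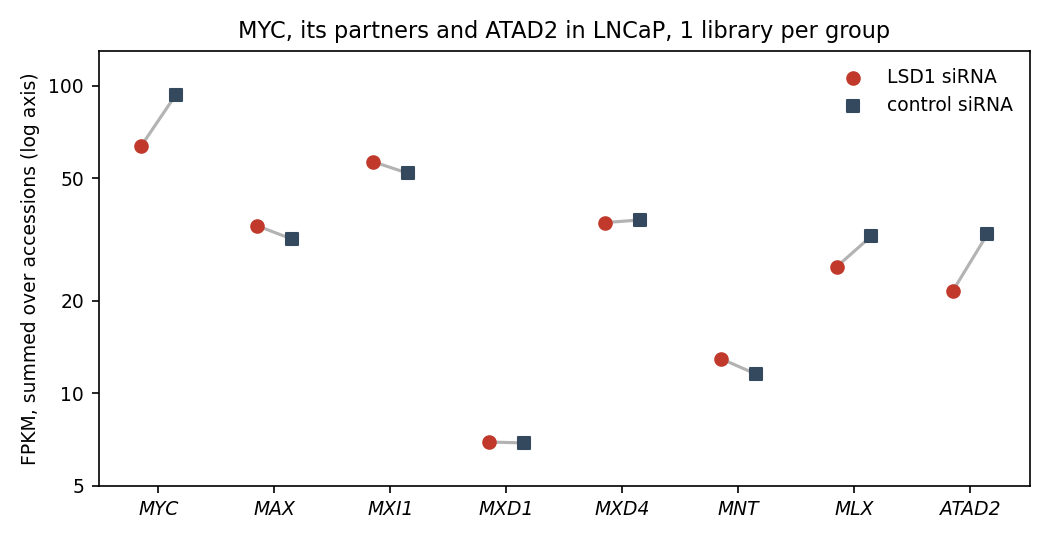
FPKM of each of the 8 genes, summed over its RefSeq accessions, on a log axis, with 1 library per group and no error bar. MYC (63.5 and 93.5 FPKM) and ATAD2 (21.5 and 32.9 FPKM) show the steepest lines between LSD1 siRNA (circles) and control siRNA (squares).

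MYC was at 63.5 FPKM in the LSD1 siRNA library and 93.5 FPKM in the control library, which is 68.0% of control. Its log2 fold change was -0.55. It had the highest level of the 8 genes in both libraries, and 1.45% of protein-coding genes had a log2 fold change as low. The depth estimated from low values put about 1622 and 3088 fragments behind each kilobase of MYC in the same order. Counting error alone gave its log2 ratio without a pseudocount, -0.56, a 95% interval of -0.64 to -0.47 for 1 kb of effective length. This interval does not include variation between cultures. Intervals made in the same way for 1 kb were -0.47 to -0.19 for MLX, 0.02 to 0.27 for MAX and 0.02 to 0.23 for MXI1. Those of MXD1, MXD4 and MNT included 0. Whether an interval includes 0 depends on the level and on the 1 kb set for every gene, so it does not sort these genes. MNT, with the larger log2 ratio (0.16, beside 0.14 for MAX), had the wider interval at its lower level. The authors' deposited table lists a p-value of 0.00736 and a q-value of 0.328 for the only accession of MYC, NM_002467, and did not call it changed.

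ATAD2 was at 21.5 FPKM after LSD1 siRNA and 32.9 FPKM with control siRNA, or 65.2% of control. The log2 fold change of -0.59 was just past the 1.5-fold size, and 1.15% of protein-coding genes had one as low. Its log2 ratio was -0.62, with a counting interval of -0.77 to -0.47 for 1 kb. Under both rescalings of the libraries ATAD2 missed the 1.5-fold size, at -0.56 and -0.57. The authors' deposited table lists a p-value of 0.00285 and a q-value of 0.183 for NM_014109. In the order of levels, ATAD2 stood at place 6 of 8 in the LSD1 siRNA library and at place 4 in the control library.

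MAX, the shared partner of MYC and its antagonists, was at 35.1 FPKM after LSD1 siRNA and 31.7 FPKM with control siRNA, a log2 fold change of 0.14. With its highest accession in place of the sum, MAX was at -0.11, so its direction depends on that choice. Among the antagonists, MXI1 was at 56.6 and 52.0 FPKM (0.12), MXD1 at 6.94 and 6.89 FPKM (0.01), MXD4 at 35.9 and 36.6 FPKM (-0.03) and MNT at 12.95 and 11.6 FPKM (0.15), LSD1 siRNA before control siRNA. These differences are near the centre of all coding genes, whose middle 50% ran from -0.14 to 0.11, with MXI1, MAX and MNT just above it. With its highest accession in place of the sum, MXI1 was at 0.39, further from that centre. MXD1 had the lowest level of the 8 genes in both libraries. These 4 antagonists summed to 112 FPKM after LSD1 siRNA and 107 FPKM with control siRNA, without network genes that are not members, such as MXD3. The ratio of MYC to this sum was 0.565 in the LSD1 siRNA library and 0.874 in the control library. The ratio of MYC to MAX was 1.81 in the LSD1 siRNA library and 2.95 in the control library. These are ratios of transcript levels, and protein was not measured.

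MLX was at 25.8 FPKM after LSD1 siRNA and 32.5 FPKM with control siRNA, a log2 fold change of -0.32. MLX did not reach the 1.5-fold size, and 7.05% of protein-coding genes had a log2 fold change as low. The table lists MLX over the same interval as PSMC3IP, a recombination gene, which was at 11.9 FPKM after LSD1 siRNA and 15.1 FPKM with control siRNA, also a log2 fold change of -0.32. TruSeq RNA v2 libraries do not mark strand, so reads where neighbouring genes overlap cannot be told apart.

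**Figure D2:**
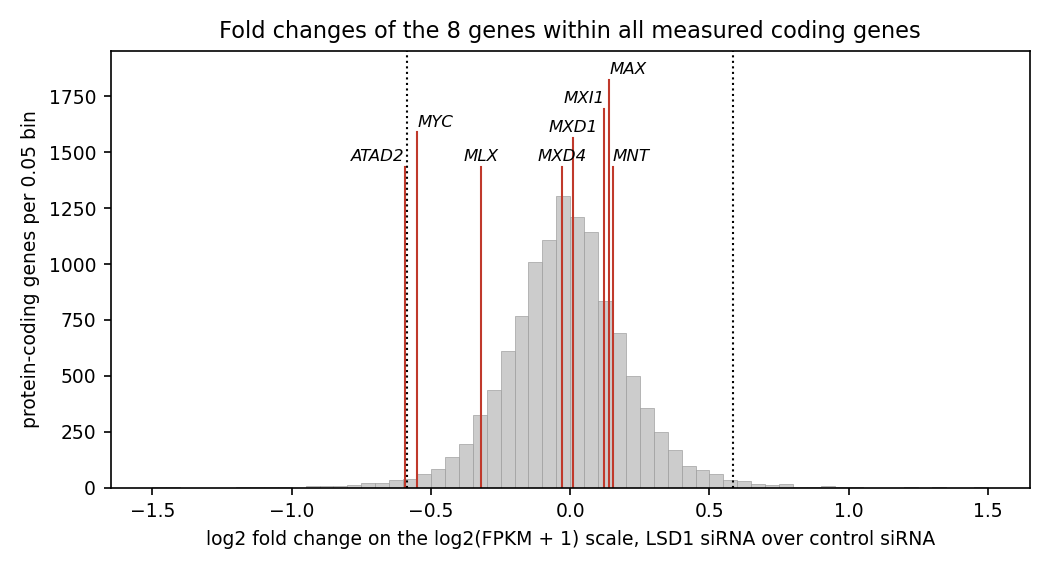
Histogram of log2 fold changes, LSD1 siRNA over control siRNA, of 11753 protein-coding genes in bins of width 0.05, with genes beyond -1.5 or 1.5 placed in the end bins. Red lines mark the 8 genes and dotted lines the 1.5-fold size. ATAD2 (-0.59) and MYC (-0.55) lie in the lower tail, MLX (-0.32) between, and the other 5 near the centre.

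The table splits 4 members over several RefSeq accessions, and 22 accessions belonged to the 8 genes. The authors tested 18 of these and called none, where 0.642% of all 22126 tested accessions were called. The authors' deposited table lists a p-value under 0.05 before adjustment for 2 of the 18, those of MYC and ATAD2, and for 6.35% of all tested accessions. MXI1 gave the largest difference between accessions. NM_130439 was at 35.6 FPKM after LSD1 siRNA and 26.9 FPKM with control siRNA, while NM_005962 was at 15.2 and 18.2 FPKM and NM_001008541 at 5.81 and 6.87 FPKM. The first thus made up 62.9% of MXI1 after LSD1 siRNA and 51.8% with control siRNA, a difference of 11.1 percentage points, and the other 2 had lower values after LSD1 siRNA.

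For MAX, NM_002382 was at 13.1 FPKM after LSD1 siRNA and 9.42 FPKM with control siRNA, and NM_145112 at 11.9 and 12.8 FPKM. The order of these leading MAX accessions thus differed between the libraries. NM_197957 was at 1.38 FPKM after LSD1 siRNA and 0.0739 FPKM with control siRNA, the largest log2 fold change of a MAX accession (1.15), at a low level. For MLX, NM_198204 was at 24.1 and 28.2 FPKM and NM_198205 at 0.730 and 2.90 FPKM (log2 fold change -1.17). MXD1 rested on NM_002357 alone, with its other 2 accessions at or near 0. A share difference of at least 5 percentage points was found in 3 of these 4 members and in 46.2% of 4097 protein-coding genes with 2 or more accessions and 5 FPKM in both libraries. As large a difference as that of MXI1 was seen in 21.8% of these genes, so none of the 3 stood apart. The authors' deposited table gives the accessions of MAX and MXI1 that it tested a q-value of 1.00.

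**Figure D3:**
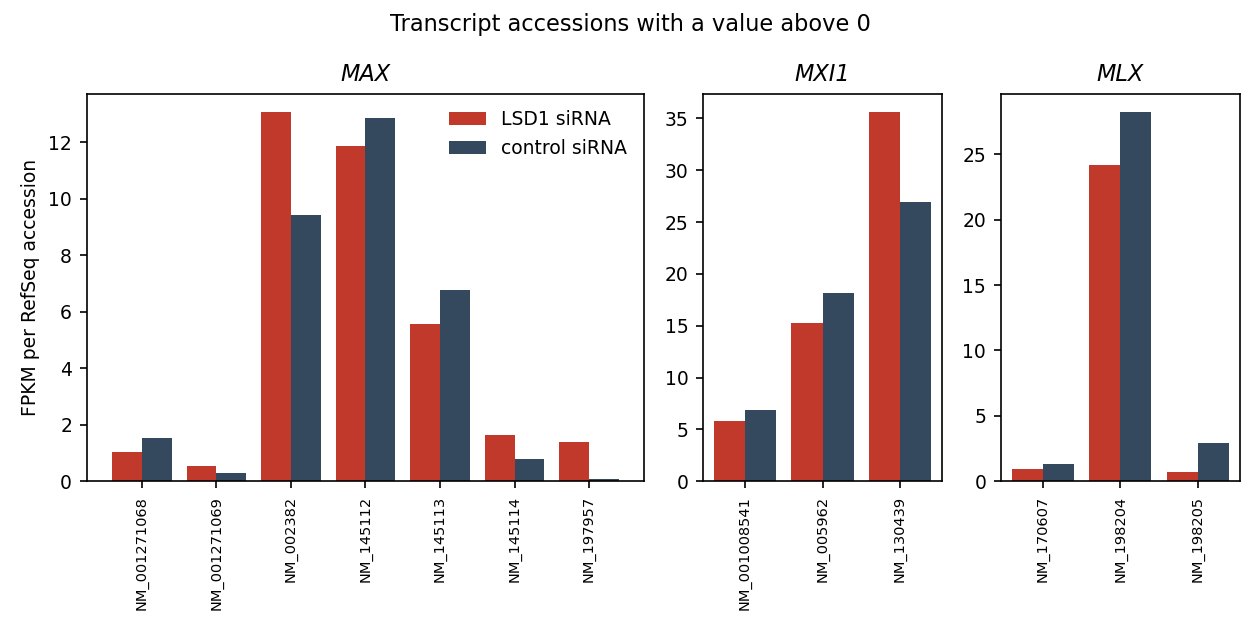
FPKM of each RefSeq accession of MAX, MXI1 and MLX with a value above 0, for LSD1 siRNA (left bar of each pair) and control siRNA (right bar), 1 library each. NM_130439 of MXI1 was higher after LSD1 siRNA (35.6 and 26.9 FPKM), and NM_198205 of MLX was lower (0.730 and 2.90 FPKM).

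The other genes of the network were measured from a list chosen with earlier results of these data known. Of 6, MYCN was near 0 (0.0163 FPKM after LSD1 siRNA and listed at 0 with control siRNA), and none of the other 5 passed 1.5-fold. MYCL, the second MYC paralog, was at 6.65 and 5.16 FPKM (log2 fold change 0.31), MLXIP, the partner of MLX, at 23.97 and 19.5 FPKM (0.28), MGA, a very large MAX partner, at 8.99 and 9.91 FPKM (-0.13) and MXD3 at 19.1 and 19.7 FPKM (-0.04). MLXIPL was at 2.43 and 2.26 FPKM (0.08). MYC was the most abundant MYC family transcript in both libraries. Among 22 MYC cofactors and regulators of MYC stability none passed 1.5-fold, and the median log2 fold change was -0.03, beside -0.01 over all protein-coding genes. The largest differences were in RUVBL1, an ATPase of chromatin remodellers that binds MYC, at 37.7 and 50.8 FPKM (-0.42), PIM1, a kinase that acts with MYC, at 4.50 and 3.25 FPKM (0.37), and ACTL6A, a remodeller subunit, at 23.5 and 29.6 FPKM (-0.32). FBXW7, the ubiquitin ligase subunit that marks MYC for degradation, was at 7.16 and 5.94 FPKM (0.23).

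Genes known to be induced by MYC were then set beside it, in lists chosen with earlier results of these data known. Ribosome biogenesis genes had values below control in 24 of 25 members, with a median log2 fold change of -0.30. Among all protein-coding genes 52.9% were below control. In this list 2 genes were lower by 1.5-fold and none was higher. NOP16, a nucleolar protein gene, was at 9.66 FPKM after LSD1 siRNA and 16.7 FPKM with control siRNA (-0.74), and NOP2, an rRNA methyltransferase gene, was at 12.6 and 20.3 FPKM (-0.64). The nucleolar proteins RRS1 (-0.51) and NCL, nucleolin, at 170 and 233 FPKM (-0.45), did not reach the size. NOLC1 was the exception, at 38.9 and 36.7 FPKM (0.08). NPM1, at 468 and 586 FPKM (-0.32), is uncertain, since pseudogenes nearly identical to it can take its reads. The E-box was in 8 of the 20 members with a promoter window, beside 12.7% of measured protein-coding genes with one. These were FBL, PES1, RRP9, GNL3, MRTO4, UTP20, NOP2 and WDR43, whose log2 fold changes ran from -0.64 in NOP2 to -0.10 in GNL3. NOP16 had no match in its window.

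Genes of metabolism and translation induced by MYC were more mixed in direction, with 8 of 24 above control. Of the 24, 16 had values below control, which is 66.7%, beside 52.9% of all protein-coding genes. In this list 1 gene was lower by 1.5-fold, none was higher, and the median log2 fold change was -0.11. CCT2, a chaperonin subunit gene, was at 87.9 FPKM after LSD1 siRNA and 136 FPKM with control siRNA (-0.63). Its promoter windows did not hold the E-box. SRM, the spermidine synthase gene, was at 46.7 and 65.8 FPKM (-0.49), while ODC1, the first enzyme of the same pathway, was at 436 and 505 FPKM (-0.21). The purine synthesis genes PPAT (-0.36) and PAICS (-0.34) were below control by similar amounts, and the E-box in their windows is the same genomic site between them. Values above control included those of glycolysis genes, with HK2, hexokinase, at 48.3 and 38.1 FPKM (0.33), PKM, pyruvate kinase, at 0.15, ENO1, enolase, at 0.15 and LDHA, lactate dehydrogenase, at 0.06. Of the 21 genes of this list with a promoter window, 13 held the E-box in at least 1 window, among them HK2 and LDHA. The share was 12.7% over measured protein-coding genes with a window.

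Of 12 cell cycle genes induced by MYC, 9 were measured. All 9 had values below control, beside 52.9% of all protein-coding genes, and the median log2 fold change of the 9 was -0.28. Only CDCA7, a chromatin factor gene, passed 1.5-fold, at 1.73 FPKM after LSD1 siRNA and 3.50 FPKM with control siRNA (-0.72). CDC25A, a phosphatase of cyclin-dependent kinases, was at 2.22 and 3.24 FPKM (-0.40), and CDK4 at 55.8 and 64.2 FPKM (-0.20). CCND2, E2F2 and TERT were under 1 FPKM in both libraries. Of the 14 genes known to be repressed by MYC, 13 were measured, 8 of them with values above control. Below control were 38.5% of the 13, where 52.9% of all protein-coding genes were below it. Beside a median of -0.01 over all protein-coding genes, that of the 13 was 0.04. CDKN2B, a cyclin-dependent kinase inhibitor gene, was the only one past 1.5-fold, at 3.38 and 1.76 FPKM (0.67). CDKN1A, the p21 gene, was at 360 and 312 FPKM (0.20), and NDRG1 at 824 and 815 FPKM (0.01). The 6 MLX and MondoA targets, of which HK2 also counts above, had a median of 0.17 and none passed 1.5-fold. PFKFB3, a regulator of glycolysis, had the largest difference, at 59.7 FPKM after LSD1 siRNA and 45.6 FPKM with control siRNA (0.38). TXNIP, the best known of them and an inhibitor of glucose uptake, was at 209 and 190 FPKM (0.14).

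Of the 10 genes listed with ATAD2, 9 had values below control, beside 52.9% of all protein-coding genes. None of the genes listed with ATAD2 passed 1.5-fold, and their median was -0.08. ATAD2B, its paralog, was at 4.65 FPKM after LSD1 siRNA and 4.96 FPKM with control siRNA (-0.08). E2F1, which also counts among the cell cycle genes, was at 4.21 and 4.997 FPKM (-0.20), CCND1, the cyclin D1 gene, was at 146 and 163 FPKM (-0.16), and the mitotic kinesin gene KIF11 was at 2.88 and 2.89 FPKM. The authors' deposited table called no accession in any of these lists.

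**Figure D4:**
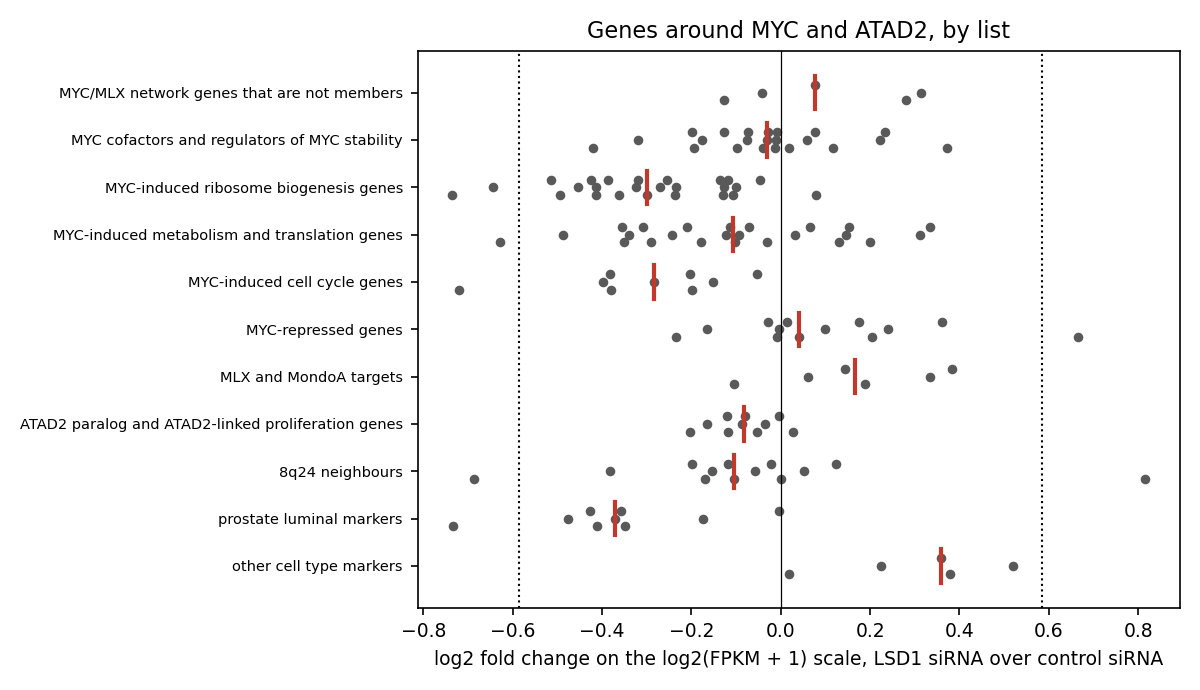
Log2 fold change, LSD1 siRNA over control siRNA, of every measured gene of 11 lists (grey points), with the median of each list (red bar) and the 1.5-fold size (dotted lines). Ribosome biogenesis genes lie below 0 except NOLC1, while genes of metabolism and translation lie on both sides.

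Neighbours on chromosome 8 were measured to see whether MYC and ATAD2 moved with their surroundings. Of 22 neighbours, 13 were at 1 FPKM or more, with a median log2 fold change of -0.11. PVT1, the noncoding neighbour of MYC that is often gained with it, was at 13.8 FPKM after LSD1 siRNA and 15.1 FPKM with control siRNA (-0.12). LRATD2, on the other side of MYC, was at 14.7 and 15.4 FPKM (-0.06). POU5F1B was below 1 FPKM (0.454 and 0.417), CASC8 was at 0 and 0.0501 FPKM, and PCAT1 was listed at 0 in both libraries. Close to ATAD2, NTAQ1, 20.3 kb away, was at 13.1 and 14.8 FPKM (-0.17), and ZHX1, 44.3 kb away on the other side, was at 18.2 and 20.3 FPKM (-0.15). Further out, the log2 fold change was -0.20 in ZHX2, 0.05 in DERL1, -0.11 in TBC1D31, -0.02 in TATDN1, 0.12 in NDUFB9 and -0.38 in SQLE, a cholesterol synthesis gene. FAM91A1 was at nearly the same level in both libraries.

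Past 1.5-fold among these neighbours were FBXO32 and ASAP1. FBXO32, a ubiquitin ligase gene 101 kb from ATAD2, was higher, at 9.18 FPKM after LSD1 siRNA and 4.78 FPKM with control siRNA (0.82). ASAP1, a regulator of ARF GTPases 2311 kb from MYC, was lower, at 5.90 and 10.1 FPKM (-0.69). The authors' deposited table called NM_058229 of FBXO32 (q-value 0.00886). It also called NR_037873, an accession of ZHX1 that was at 0 FPKM after LSD1 siRNA and 4.19 FPKM with control siRNA (q-value 0.0129), though ZHX1 as a whole was near its control level.

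The protein-coding genes nearest to MYC in level and difference were GGCT (63.6 and 88.8 FPKM), ACAD8 (66.1 and 86.4 FPKM) and SSB (70.3 and 92.9 FPKM), LSD1 siRNA before control siRNA. Those nearest to ATAD2 were GLYATL2 (21.4 and 32.0 FPKM), THUMPD1 (22.3 and 32.7 FPKM) and HMGCS1 (21.2 and 31.6 FPKM). Distances were Euclidean on the log2(FPKM + 1) scale over 2 libraries, and ran from 0.07 to 0.14 for MYC and from 0.04 to 0.06 for ATAD2. With 2 libraries such likeness says only that both values were close.

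The depth estimated from low values of the LSD1 siRNA library was 77.3% of that of the control library. At 1 FPKM a gene with 2 kb of effective length would rest on about 51.1 fragments after LSD1 siRNA and 66.1 with control siRNA. LNCaP identity was checked with 9 luminal prostate markers, all measured, which included KLK3 at 1941 FPKM after LSD1 siRNA and 2474 FPKM with control siRNA. All 9 had values below control, beside 52.9% of all protein-coding genes, and the median log2 fold change of the 9 was -0.37. Of 14 markers of basal, stromal, immune, endothelial and neuroendocrine cells 5 reached 1 FPKM. They summed to 35.3 FPKM after LSD1 siRNA and 25.6 FPKM with control siRNA, led by CD68 (16.2 and 11.0 FPKM) and COL1A1 (11.7 and 8.77 FPKM). All 5 had values above control, beside 5539 of 11753 protein-coding genes, and their median log2 fold change was 0.36. COL1A2 and CD3E were at 0 in both libraries, and TP63, KRT5, DCN, PTPRC and CHGA were under 0.06 FPKM. KRT14, a basal keratin, was higher than these, at 0.739 FPKM after LSD1 siRNA and 0.507 FPKM with control siRNA, and the endothelial PECAM1 was at 0.129 and 0.0926 FPKM. Depth and these markers differed between the libraries together with MYC and ATAD2, and their part in the result was not tested. In bulk RNA, fewer cells that express a gene and less RNA of it per cell cannot be told apart.

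Peaks were then sought within 50 kb of each gene interval, as the expression table gives it on hg19, to see where LSD1 and H3T6ph lay around these genes. In all 14 peaks lay near 5 of the 8 members. LNCaP LSD1 had a peak near 4 members (MAX, MXD4, MNT and ATAD2), where 58% of measured protein-coding genes had one. VCaP LSD1 also had a peak near 4 (MYC, MAX, MNT and ATAD2), beside 56.5% of protein-coding genes. H3T6ph had one near 2 (MAX and ATAD2), beside 27.1%. MXI1, MXD1 and MLX had none of the 3 lists, as had 18.9% of protein-coding genes. Intervals of 50 to 200 kb more often had a peak nearby than shorter ones, in each of the 3 lists. For intervals under 10 kb, such as that of MYC, 46.9% of coding genes had an LNCaP LSD1 peak, 52.2% a VCaP LSD1 peak and 22.4% an H3T6ph peak. For 10 to 50 kb, the class of MXD1, MXD4, MNT and MLX, the shares were 53.7%, 53.6% and 22.4% in the same order. For 50 to 200 kb, the class of MAX, MXI1 and ATAD2, they were 65.2%, 60.3% and 32.6%. MLX is classed by the 10.8 kb interval that it shares with PSMC3IP, while RefSeq on GRCh38.p14 gives it 6.10 kb. Counts of 4, 4 and 2 of 8 members are near these backgrounds and do not set the 8 genes apart. The authors' peak scores have no stated scale and are used only for rank within a list.

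**Figure D5:**
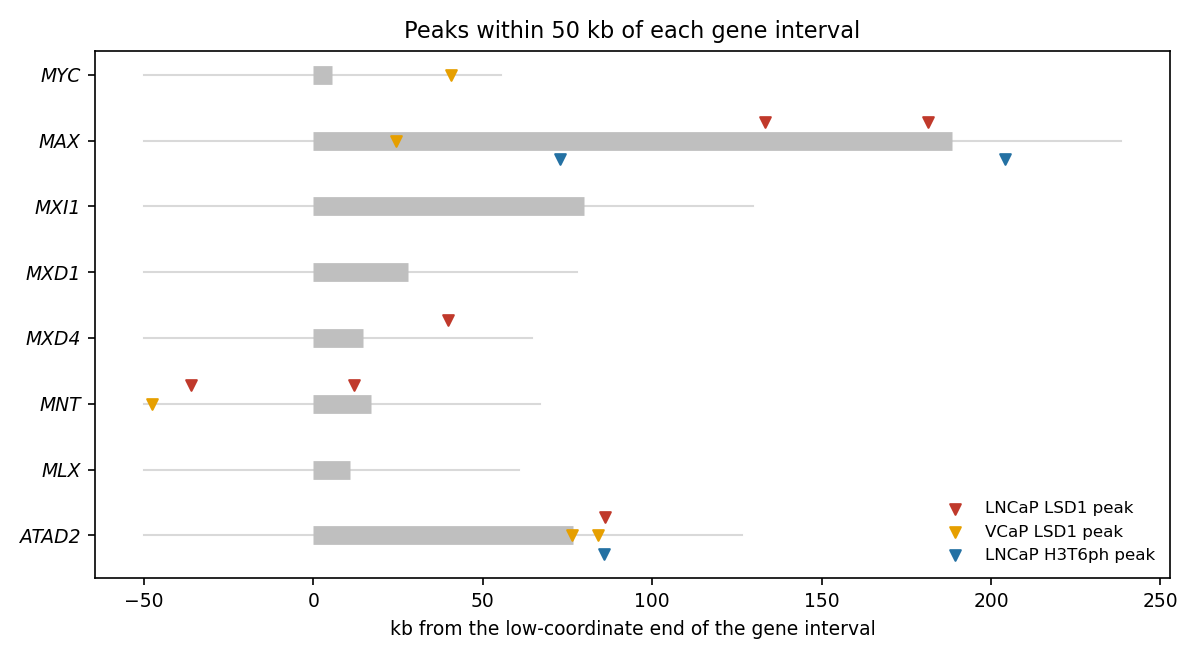
Peak centres (triangles) of LSD1 in LNCaP, LSD1 in VCaP and H3T6ph in LNCaP within 50 kb of each gene interval (grey bar), with distance in kb along the axis counted from where the interval begins. ATAD2 has peaks of all 3 lists at or past the high-coordinate end, MYC has 1 VCaP LSD1 peak, and MXI1, MXD1 and MLX have none.

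ATAD2 (chromosome 8, 124332091 to 124408705) was the only member with a site shared between lists, which 20.2% of protein-coding genes had within 50 kb (17.7% of those under 10 kb, 18.5% of those of 10 to 50 kb and 22.4% of those of 50 to 200 kb). An LSD1 peak of LNCaP at 124417663 to 124418518 (score 73.9) overlapped an H3T6ph peak of LNCaP at 124417643 to 124418192 (score 67.6), both about 9 kb past the high-coordinate end of the gene, from which ATAD2 is known to be transcribed. A VCaP LSD1 peak at 124407284 to 124409536 (score 100) lay across that end itself, and 92.4% of the peaks of its list had no higher score. A second VCaP LSD1 peak lay at 124415678 to 124416300 (score 58.8), 6.97 kb past the end and without overlap with the LNCaP peaks. The table gives ATAD2 76.6 kb, and RefSeq on GRCh38.p14 gives it 96.5 kb, so a peak outside the interval here can lie inside a longer annotation.

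MYC (chromosome 8, 128748315 to 128753680) had no LNCaP peak of either antibody within 50 kb. Its only nearby peak was from LSD1 in VCaP, at 128788466 to 128789361 (score 77.7), 34.8 kb past the high-coordinate end and in no gene interval of the table. The nearest H3T6ph peak was 59.2 kb away, at 128812861 to 128813574, and the nearest LNCaP LSD1 peak 111 kb away, at 128864494 to 128865832, both on the same side. Within 500 kb of MYC, a window chosen after the values were seen, lay 9 LNCaP LSD1, 6 VCaP LSD1 and 7 H3T6ph peaks, where the medians over protein-coding genes were 5, 5 and 2. For ATAD2 the same window held 3, 9 and 4. The counts were 12, 5 and 4 for MAX, 5, 11 and 4 for MNT and 7, 1 and 1 for MXI1. They were 6, 6 and 1 for MXD4, 5, 5 and 1 for MLX and 1, 4 and 0 for MXD1. The highest count of the 8 genes was thus at MAX for LNCaP LSD1, at MNT for VCaP LSD1 and at MYC for H3T6ph.

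The MAX interval (chromosome 14, 65381079 to 65569413) held 2 LNCaP LSD1 peaks, 1 VCaP LSD1 peak and 1 H3T6ph peak, none of which overlapped another. It is 188 kb long, where RefSeq on GRCh38.p14 gives MAX 96.6 kb, and the table lists it for 7 further genes too. Of these, CHURC1 was at 6.67 FPKM after LSD1 siRNA and 9.93 FPKM with control siRNA, CHURC1-FNTB at 5.58 and 6.22 FPKM, FNTB at 4.79 and 3.34 FPKM, RAB15 at 12.4 and 12.9 FPKM and GPX2 at 0.931 and 0.582 FPKM. MAX-AS1 and MIR4706 were listed at 0, as was MIR4800, which shares the MXD4 interval. MAX lies on the minus strand, and the LNCaP LSD1 peak at 65561990 to 65563070 (score 105) was 6.34 kb inside its high-coordinate end. An H3T6ph peak at 65585120 to 65585491, 15.7 kb beyond that end, had a score of 157, at or above 96.3% of its list. Peaks further toward the low end, such as the VCaP LSD1 peak at 65404571 to 65406385, may belong to the other genes.

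At MNT (chromosome 17, 2287354 to 2304258) an LNCaP LSD1 peak at 2298845 to 2299522 lay inside the gene, 4.74 kb from the high-coordinate end, with a score of 55.9 that 21.2% of its list did not exceed. Another, at 2250887 to 2251637, lay in the SGSM2 interval. The VCaP LSD1 peak at 2239013 to 2240348 (score 97.5), 47.0 kb away, overlapped the intervals of SRR and of TSR1, a ribosome biogenesis gene that was at 20.8 FPKM after LSD1 siRNA and 24.6 FPKM with control siRNA. For MXD4 (chromosome 4, 2249160 to 2263739) the only peak was from LSD1 in LNCaP, at 2288424 to 2289238 (score 103), 24.7 kb beyond the high-coordinate end and within ZFYVE28.

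The members without peaks were MXI1 (chromosome 10, 111967363 to 112047123), MXD1 (chromosome 2, 70142173 to 70170076) and MLX (chromosome 17, 40719078 to 40729849). The nearest LNCaP LSD1 peaks were 125 kb from MXI1, 189 kb from MXD1 and 143 kb from MLX. The nearest VCaP LSD1 peaks were 355 kb, 81.4 kb and 195 kb away in the same order. Among the 3 members with the lowest log2 fold changes, ATAD2 thus had LNCaP peaks of both antibodies nearby and MYC and MLX had none. Sites too weak to be called are in none of the lists, so having no peak does not show that a gene was unbound.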

How the data were processed

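RNA-seq came from 2 LNCaP libraries and peak lists from 3 ChIP samples. Tools named are TopHat2 2.0.4, Cuffdiff 2.0.1, Bowtie2 2.0.0 and MACS2, on hg19, per the submitters' processing notes. Libraries were made with TruSeq RNA v2 and ThruPLEX-FD kits, per the labels. The authors deposited 1 value per RefSeq accession and library, under headers that name only the siRNA. The deposited values are read as FPKM from the Cuffdiff column layout, a unit that no source used here states. Per the file headers, the authors also deposited the p-value and q-value of their own test, and each peak has 1 deposited score, which is never under 50.0. No source used here gives the annotation version or the ChIP control.

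Symbols were assigned to 96.7% of 40253 accessions through RefSeq (GRCh38.p14). FPKM were summed per symbol, 42 genes with a failed accession were left out, and a gene was kept if either library had 1 FPKM or more of it. Differences are on the log2(FPKM + 1) scale. Depth was estimated from single-fragment values of intronless olfactory receptor genes, where 44 of 44 and 41 of 41 genes came out whole within 0.05, in the LSD1 siRNA and control libraries. Table starts were shifted by 1 base to count from 1. Peaks sharing at least 1 base were called shared. Calculations used Python 3.11.15 and pandas 2.3.3, and were tested on simulated data. The members and lists were chosen with earlier results of these data known, and the motif search after the expression values were seen. Text names the 8 genes, genes past 1.5-fold in each list (at most 6) or else the 2 to 4 with the largest differences, and others as examples chosen after their values were seen. A luminal marker result past 1.5-fold is not reported here.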

Additional observations from a re-analysis of the deposited data

How the results depend on the processing

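With 1 library per group no replicate could be left out, and no difference has a replicate check. No paired analysis was possible because each group held 1 sample and no test was run. Of the 8 genes, 1 was lower by 1.5-fold. That count was 0 with the libraries scaled to the same median or to the same upper quartile, where ATAD2 stood at -0.56 and -0.57, and it was 0 at 2-fold and 2 (MYC and ATAD2) at the smaller size, a log2 difference of 0.32. No gene of the 8 was higher by the fixed size under any alternative. The log2 fold change of MYC ran from -0.56 to -0.51 and that of ATAD2 from -0.61 to -0.56 over the alternatives. With the highest accession in place of the sum, MAX stood at -0.11 and MXI1 at 0.39. MXD4 was at 0.01 with the median scaling. Among the list medians, that of ribosome biogenesis genes ran from -0.32 to -0.26, metabolism and translation genes from -0.14 to -0.07, cell cycle genes from -0.30 to -0.24, MYC-repressed genes from 0.03 to 0.10 and chromosome 8 neighbours from -0.13 to -0.02, the last without a minimum level. The median of MYC cofactors changed sign, to 0.0083 with the median scaling. That of other cell type markers was 0.36 over the 5 measured and 0.03 without a minimum. Within 20 kb, 3 of 8 members had an LNCaP LSD1 peak, 2 a VCaP LSD1 peak and 2 an H3T6ph peak, beside 42.2%, 41.9% and 18% of protein-coding genes. Within 100 kb these were 4, 6 and 4 members, beside 73.5%, 69.9% and 39.8%. Within 500 kb, a distance chosen after seeing the data, they were 8, 8 and 7 members, beside 96.5%, 92.4% and 81.6%. A changed size or distance moves these counts by construction. The table gives no read totals, and accessions such as NM_197957 of MAX rest on low values that depth limits.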
